A study of Mus musculus with 24 samples.

Results

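The methionine and one-carbon methyl cycle of the liver was followed through 10 genes of the 54532 in the count table. They are Mat1a, Gnmt, Pemt, Ahcy, Bhmt, Cbs, Cth, Dmgdh, Sardh and Shmt1, and each was found by its gene name. The list was selected on measured values of these data, the fall of the abundant liver gene Gnmt with loss of Cpt2, so the levels of these genes with loss of Cpt2 are given as a description with no p-value, and counts past a threshold there describe the same values and test nothing. All 10 genes passed the filter on low counts in every comparison, with 1167 to 383420 counts per library.

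RNA-seq was performed on the livers of 24 male C57BL/6J mice at 8 to 10 weeks of age, all collected after a 24 h fast, in 6 groups of 4. Rab30 is a small GTPase of the secretory pathway, and Cpt2 is the carnitine palmitoyltransferase of the inner mitochondrial membrane that long chain fatty acids need for β-oxidation. In Rab30KO mice exon 4 of Rab30 is deleted in every tissue, and their controls (Rab30 Ctrl) are wild type littermates. Rab30L-/- mice carry floxed Rab30 with Cre under the albumin promoter, which acts in hepatocytes and leaves the other liver cells intact. Cpt2L-/- mice carry floxed Cpt2 with the same Cre, and double knockouts (DKO) carry both floxed genes with Cre. The ff;ff controls carry both floxed genes without Cre and are littermates of DKO only, so Cre and colony differ together with genotype where Rab30L-/- or Cpt2L-/- livers were set against them. Cre also differs together with genotype between DKO and ff;ff livers. No label makes DKO mice littermates of Rab30L-/- or Cpt2L-/- mice, so colony may differ between those groups and in the interaction as well. The labels name no batch, and nothing in them ties libraries of different groups to each other. Each library carries a name of its own, the study's methods state that animals came from several litters, and all 36 pairs of libraries within the groups differed by more than counting noise. Library totals ranged from 11801027 to 24497738 counts with a median of 14358966.

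Counts over the whole gene went with the labels in part and could not check them. Rab30 was at 122 to 188 CPM (counts scaled to library size by the TMM method) in Cpt2L-/- livers and at 100.9 to 231.5 CPM in DKO livers, above the 25.9 to 44.6 CPM of ff;ff livers. Cpt2 was at 95.3 to 167 CPM in Cpt2L-/- livers, 96.1 to 120 CPM in DKO livers and 128 to 139 CPM in ff;ff livers. Rab30 was at 17.1 ± 7.36 CPM in Rab30L-/- and 36.6 ± 9.55 CPM in ff;ff livers (SD, n = 4), a log2 difference of -1.10 (adjusted p = 0.174 from edgeR), and its log2 difference in Rab30KO against Rab30 Ctrl was -0.34 (adjusted p = 1 from edgeR). Cpt2 differed by -1.07 on the log2 scale in DKO against Rab30L-/- livers with no overlap (adjusted p = 0.00045 from edgeR). Its level in Rab30L-/- livers was itself above that of ff;ff livers, at 219.5 ± 40.3 against 132 ± 5.15 CPM (SD, n = 4), with no overlap and an adjusted p of 0.0772 from edgeR. Against ff;ff livers DKO livers differed by -0.34 (adjusted p = 0.0911 from edgeR), and the interaction of both losses was -0.99 (adjusted p = 0.0191 from edgeR). The log2 difference of Cpt2 in Cpt2L-/- against ff;ff was -0.07 (adjusted p = 0.788 from edgeR). A count over the whole gene includes exons outside the deleted part, and the exon deleted in Cpt2 is not given in the sources used here. The groups are therefore those of the labels throughout, and every direction below is between labelled groups.

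In this cycle, methionine is activated to S-adenosylmethionine, the methyl donor of most cellular methylation, and each transfer leaves S-adenosylhomocysteine, which is split to homocysteine. Homocysteine is either methylated back to methionine, in liver with betaine or with a folate as donor, or passed to cysteine by transsulfuration. Hepatocytes carry nearly the whole of this machinery, and Gnmt, which methylates glycine to sarcosine, is known there as an overflow for S-adenosylmethionine, while sarcosine and dimethylglycine return their methyl groups to the folate pool in mitochondria.

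The promoters of these genes were read first, since the 10 genes moved together with loss of Cpt2. Windows of 250 bases before the RefSeq start (GRCm38.p6) were found for 8 of the 10 genes, all except Mat1a and Cth. The letters AGGTCA, known as the half-site of many nuclear receptors, were in 4 of these 8 windows on either strand, against 14% of 32851 RefSeq windows of the same length. Gnmt and Ahcy held it on the minus strand of their promoter, 181 and 205 bases before the start. Sardh held it on the plus strand at 204 bases and Bhmt held it there 3 times, at 234, 72 and 47 bases. The glucocorticoid receptor half-site AGAACA was in 0 of the 8 windows and in 16.1% of all windows, TGATGNAA of the CARE motif in 0 of 8 and 3.45%, and the TATA box letters TATAAA in 0 of 8 and 12.4%. The Sardh stretch lies before the RefSeq start but inside the span that GENCODE gives the gene, since a longer GENCODE transcript starts further upstream. The Bhmt matches at 72 and 47 bases also lie inside the GENCODE span of their gene and are not printed. These matches describe letters only and are not sites of binding. The 4 promoters that hold AGGTCA are shown 5′ to 3′ on the strand of the gene, with the match in capitals (TGACCT where it lies on the other strand) and without bases that GENCODE M21 places in an exon.
Gnmt promoter (chr17:46729169-46729415, minus strand): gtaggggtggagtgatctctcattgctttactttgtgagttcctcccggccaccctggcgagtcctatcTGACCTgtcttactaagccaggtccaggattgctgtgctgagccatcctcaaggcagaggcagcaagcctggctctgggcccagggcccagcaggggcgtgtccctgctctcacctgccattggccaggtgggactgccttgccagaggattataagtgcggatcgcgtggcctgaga
Ahcy promoter (chr2:155074498-155074747, minus strand): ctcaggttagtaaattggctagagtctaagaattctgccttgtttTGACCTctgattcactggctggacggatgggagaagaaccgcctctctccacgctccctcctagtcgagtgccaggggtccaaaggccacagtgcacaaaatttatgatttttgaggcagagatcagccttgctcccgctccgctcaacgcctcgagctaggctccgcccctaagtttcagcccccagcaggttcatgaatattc
Bhmt promoter, the first 47 bases with 1 of its 3 matches (chr13:93637962-93638008, minus strand): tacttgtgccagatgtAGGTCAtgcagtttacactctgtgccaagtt
Sardh promoter, the first 139 bases (chr2:27247415-27247553, minus strand): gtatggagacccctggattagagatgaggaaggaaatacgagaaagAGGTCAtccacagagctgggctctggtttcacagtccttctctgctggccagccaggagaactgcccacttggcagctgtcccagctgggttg

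All 10 genes had a lower mean in the livers labelled Cpt2L-/- and DKO than in any of the 4 groups with Cpt2 left intact. Together they held 2.92% ± 0.59 (SD, n = 4) of the scaled counts in ff;ff livers and 3.11% ± 0.28 (SD, n = 4) in Rab30L-/- livers, against 1.40% ± 0.21 (SD, n = 4) in Cpt2L-/- livers and 1.54% ± 0.31 (SD, n = 4) in DKO livers. Rab30 Ctrl and Rab30KO livers held 2.69% ± 0.44 and 2.53% ± 0.41 (SD, n = 4 each). Gnmt and Cth stood lowest relative to their controls, at 18.9% and 11.7% of the ff;ff level in Cpt2L-/- livers. The livers are bulk tissue, so fewer cells of a type and less RNA per cell cannot be told apart.

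Past the thresholds of an adjusted p under 0.05 and a 1.2-fold change in edgeR's quasi-likelihood test were 10 of the 10 genes in Cpt2L-/- against ff;ff livers, all lower, where 23.8% of 13270 genes were called and 11.9% were called lower. In DKO against Rab30L-/- livers it was again 10 of 10, all lower, where 30.7% of 13292 genes were called and 15.8% were called lower. In DKO against ff;ff livers 8 of 10 were lower past the thresholds, all except Mat1a and Bhmt, where 16.1% of 13389 genes were called and 8.24% were called lower. Since the genes were chosen with these contrasts known, nothing is read from the counts. Their median log2 fold changes were -1.18, -1.07 and -0.94 in the same order, where the medians of all genes tested were -0.00348, -0.012 and -0.0178. The Cpt2L-/- and DKO contrasts with ff;ff share the same 4 control livers, and both DKO contrasts share the same 4 DKO livers.

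**Figure D1:**
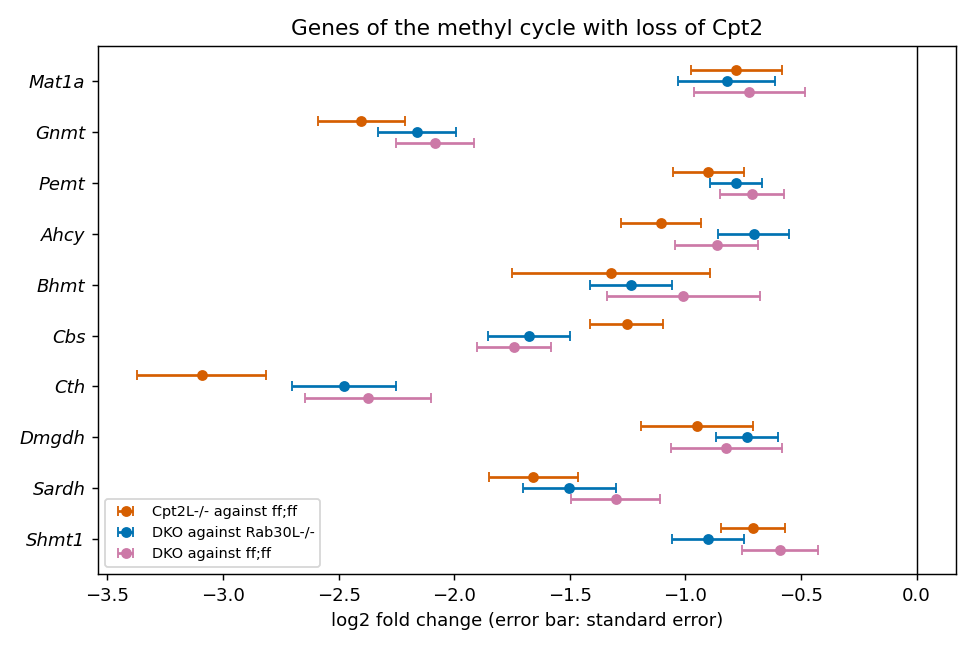
Log2 fold change of each of the 10 genes with loss of Cpt2 (x axis, log2 scale) in 3 comparisons, with the standard error from edgeR as the bar. Every point lies below 0, from -3.09 for Cth to -0.59 for Shmt1, and the fall of Gnmt lies between -2.40 and -2.08.

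Ranges of single livers separated the groups for most of these genes. Every Cpt2L-/- liver was below every ff;ff liver for 8 genes (not Bhmt and Dmgdh), which held for 12.5% of all genes tested. Every DKO liver was below every Rab30L-/- liver for 10 genes, against 15.5% of all genes, and below every ff;ff liver for 7 genes (not Mat1a, Bhmt and Dmgdh), against 9.92% of all genes. Over all 24 livers, the 8 with loss of Cpt2 lay wholly below the 16 others for Gnmt, Pemt, Ahcy, Cbs, Cth, Sardh and Shmt1. For Mat1a, Bhmt and Dmgdh, respectively 5, 3 and 2 of the 16 others were at or below the highest liver with loss of Cpt2.

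**Figure D2:**
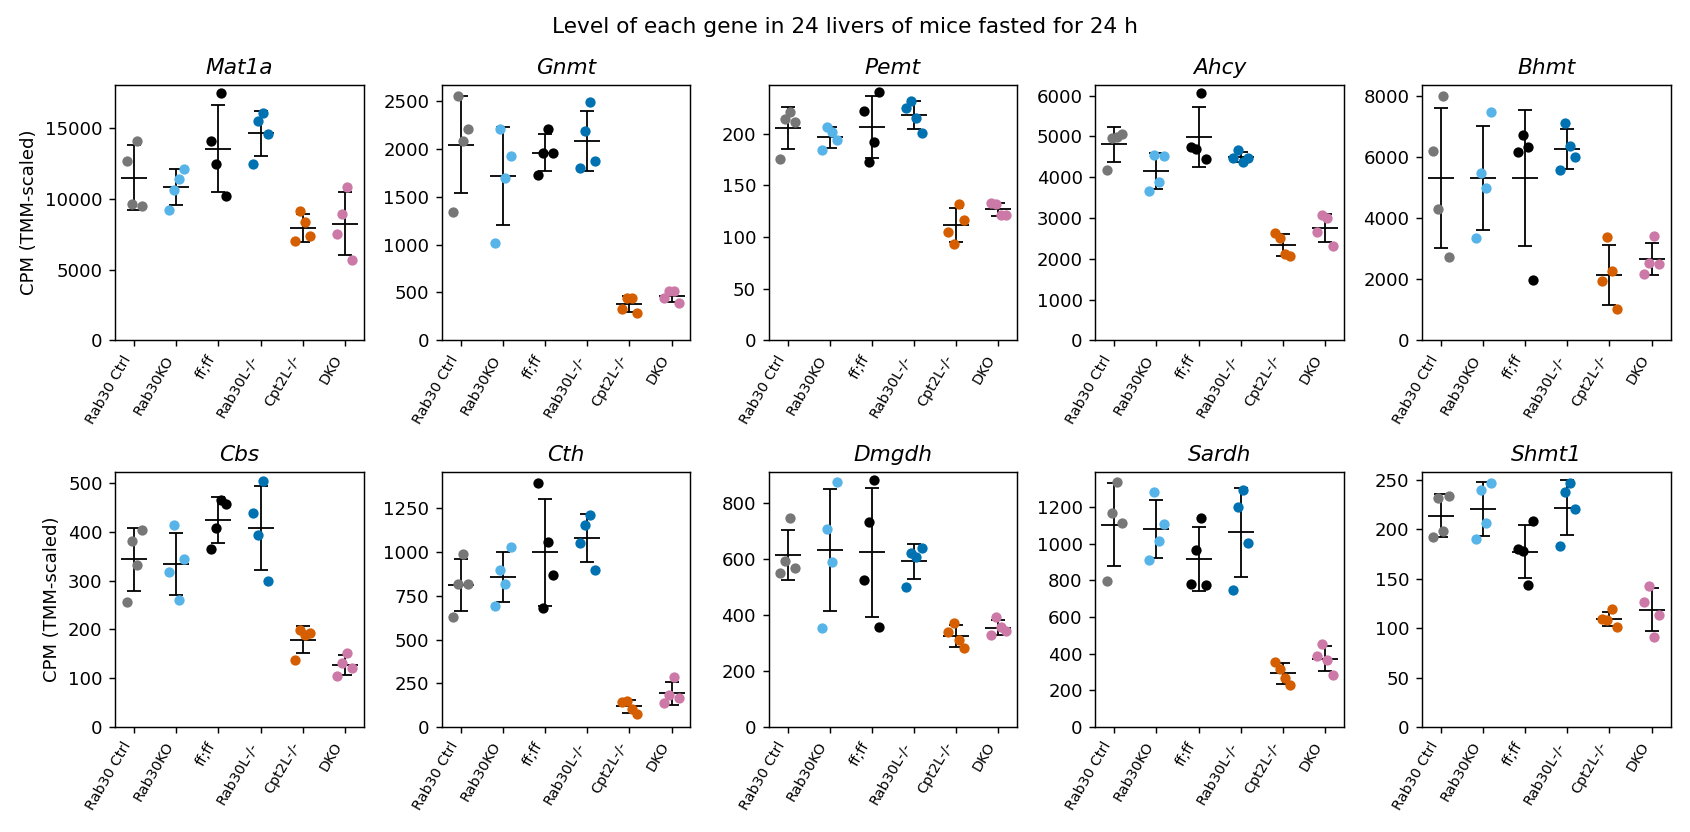
TMM-scaled CPM (y axis, linear from 0) of each gene in the 6 groups, with 1 point per liver and the mean and SD of 4 livers as the dash and bar. Cpt2L-/- and DKO livers form the lower step in each panel, clear of all other livers for Gnmt (283 to 517 against 1014 to 2551 CPM) and overlapping with single livers of other groups for Mat1a, Bhmt and Dmgdh.

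The first step of the cycle is made by Mat1a, the liver form of methionine adenosyltransferase (ENSMUSG00000037798, chromosome 14 of GRCm38 from 41105035 to 41124412, plus strand). Per length it was the most abundant of the 10 genes, at 3984 ± 920 FPKM (counts scaled to gene length and library, SD, n = 4) in ff;ff livers and 2324 ± 291 FPKM in Cpt2L-/- livers. Its CPM in single livers was 14100, 12440, 17470 and 10230 in ff;ff, 12440, 15500, 16080 and 14570 in Rab30L-/-, 7014, 9170, 8350 and 7344 in Cpt2L-/-, and 7541, 8959, 10860 and 5673 in DKO. One DKO liver thus stood above the lowest ff;ff liver, while no Cpt2L-/- liver did. Rab30 Ctrl livers were at 9522 to 14130 CPM and Rab30KO livers at 9239 to 12140 CPM. The log2 fold change was -0.78 (standard error 0.20) in Cpt2L-/- against ff;ff and -0.82 (0.21) in DKO against Rab30L-/-, among the smaller falls of the list. Mat1a kept the highest level per length of the 10 genes in all 6 groups.

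Gnmt, glycine N-methyltransferase (ENSMUSG00000002769, chromosome 17 from 46725664 to 46729168, minus strand), is the gene on which the list was chosen. It was measured at 1724, 1959, 2205 and 1952 CPM in ff;ff livers, 1796, 2182, 2486 and 1877 in Rab30L-/- livers, 324, 447, 444 and 283 in Cpt2L-/- livers, and 440, 517, 513 and 388 in DKO livers. No liver lay between the groups. In the whole-body colony it was at 1342, 2551, 2079 and 2207 CPM in Rab30 Ctrl livers and at 1014, 2211, 1697 and 1927 CPM in Rab30KO livers, so 1 liver of each of these groups was well below its 3 others and still above all livers with loss of Cpt2. The fall was 5.28-fold in Cpt2L-/- against ff;ff (log2 -2.40, standard error 0.19) and 4.47-fold in DKO against Rab30L-/- (log2 -2.16, standard error 0.17). Per length, Gnmt went from 1655 ± 173 FPKM in ff;ff to 314 ± 69.7 FPKM in Cpt2L-/- livers (SD, n = 4), and its place among protein-coding genes ordered by mean FPKM from 41 to 118.

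Pemt, which methylates phosphatidylethanolamine to phosphatidylcholine with S-adenosylmethionine (ENSMUSG00000000301, chromosome 11 from 59970614 to 60046489, minus strand), was a much less abundant transcript, at 99.8 ± 13.7 FPKM in ff;ff and 53.6 ± 7.44 FPKM in Cpt2L-/- livers (SD, n = 4). Its CPM was 173 to 240 in ff;ff, 201 to 231 in Rab30L-/-, 93.5 to 132 in Cpt2L-/- and 121 to 133 in DKO livers, so all livers with loss of Cpt2 were below all others. The log2 fold changes of -0.90 (standard error 0.15) and -0.78 (0.11) in the order given for Mat1a were also among the smaller falls.

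Ahcy, which splits S-adenosylhomocysteine to homocysteine and adenosine (ENSMUSG00000027597, chromosome 2 from 155059310 to 155074497, minus strand), was at 4744, 4691, 6059 and 4441 CPM in ff;ff livers, 4462, 4671, 4376 and 4465 in Rab30L-/- livers, 2640, 2498, 2124 and 2078 in Cpt2L-/- livers, and 2651, 3066, 2990 and 2300 in DKO livers. The 4 Rab30L-/- livers were close together, and all livers with loss of Cpt2 lay below the lowest of the others, a Rab30KO liver at 3651 CPM. The log2 fold change was -1.11 (standard error 0.17) in Cpt2L-/- against ff;ff and -0.71 (0.15) in DKO against Rab30L-/-.

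Bhmt remakes methionine from homocysteine with betaine (ENSMUSG00000074768, chromosome 13 from 93616675 to 93637961, minus strand). It had the highest SD relative to its mean of the 10 genes in ff;ff, Cpt2L-/- and Rab30 Ctrl livers, with 6156, 6733, 6319 and 1983 CPM in ff;ff livers, 1936, 3387, 2252 and 1011 in Cpt2L-/- livers, and 2172, 2542, 3399 and 2494 in DKO livers. The ff;ff liver at 1983 CPM (ffff248) lay within the range of the livers with loss of Cpt2, while the Rab30L-/- livers at 5580, 7111, 6345 and 5998 CPM all lay above it. Rab30 Ctrl livers spread from 2712 to 8006 CPM and Rab30KO livers from 3339 to 7462 CPM. Bhmt fell by 1.32 on the log2 scale (standard error 0.43) in Cpt2L-/- against ff;ff, and by 1.24 (0.18) in DKO against Rab30L-/-. Bhmt has a similar neighbour, Bhmt2, and how the counting treated reads shared by both is not given in the sources used here.

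The liver ffff248 was also the lowest ff;ff liver for Mat1a, Ahcy, Dmgdh and Sardh, where Sardh was at 776.5 CPM in it and 777.2 CPM in the next. Without it, the log2 fold change in Cpt2L-/- against ff;ff was -1.597 (standard error 0.32) for Bhmt, -0.90 (0.19) for Mat1a and -1.15 (0.20) for Dmgdh. In DKO against ff;ff it was -1.28 (0.20) for Bhmt without ffff248 and -1.01 (0.33) with it, and Bhmt then passed the thresholds. In Cpt2L-/- against ff;ff Bhmt no longer passed them when Cpt2164, Cpt2801, Cpt2802, ffff238, ffff240 or ffff242 was left out, with log2 fold changes from -1.64 to -1.08 over the 8 fits, nor with DESeq2's size factors or without the filter on low counts. In DKO against ff;ff Mat1a passed them without DKO247, Dmgdh did not without any single DKO liver, ffff240 or ffff242, and Shmt1 did not without DKO232, DKO247, DKO943, ffff240 or ffff248. Over all 8 fits of this comparison with 1 liver left out, the log2 fold changes were -0.88 to -0.58 for Mat1a, -1.01 to -0.61 for Dmgdh and -0.69 to -0.48 for Shmt1.

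Transsulfuration held the gene with the lowest relative level. Cbs, cystathionine β-synthase (ENSMUSG00000024039, chromosome 17 from 31612623 to 31637199, minus strand), joins homocysteine to serine, and Cth, cystathionine γ-lyase (ENSMUSG00000028179, chromosome 3 from 157894248 to 157925077, minus strand), releases cysteine. Cth was at 1394, 680, 1056 and 867 CPM in ff;ff livers, 1052, 1155, 1212 and 900 in Rab30L-/- livers, 142, 152, 105 and 72.9 in Cpt2L-/- livers, and 139, 186, 286 and 164 in DKO livers. Its log2 fold change was -3.09 (standard error 0.28), an 8.53-fold fall, in Cpt2L-/- against ff;ff and -2.48 (0.22), a 5.56-fold fall, in DKO against Rab30L-/-. The highest DKO liver was below the 627 to 1031 CPM of the Rab30 Ctrl and Rab30KO livers. By mean FPKM Cth went from place 138 among protein-coding genes in ff;ff to place 882 in Cpt2L-/- and 554 in DKO livers.

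Cbs was at 364, 408, 465 and 458 CPM in ff;ff livers, 439, 392, 503 and 298 in Rab30L-/- livers, 137, 199, 188 and 192 in Cpt2L-/- livers, and 104, 132, 152 and 121 in DKO livers. It was the only gene of the 10 with a lower mean in DKO than in Cpt2L-/- livers, with 3 of the 4 DKO livers below the lowest Cpt2L-/- liver and the DKO liver at 152 CPM within their range. Its log2 fold change was -1.25 (standard error 0.16) in Cpt2L-/- against ff;ff and -1.68 (0.18) in DKO against Rab30L-/-.

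The 2 mitochondrial dehydrogenases that recover methyl groups moved by different amounts. Sardh oxidizes sarcosine to glycine (ENSMUSG00000009614, chromosome 2 from 27188393 to 27248337, minus strand) and was at 777, 964, 1138 and 776 CPM in ff;ff livers, 748, 1199, 1294 and 1004 in Rab30L-/- livers, 356, 316, 267 and 229 in Cpt2L-/- livers, and 389, 453, 364 and 286 in DKO livers. All livers with loss of Cpt2 lay below the lowest of the others, and Sardh changed by -1.66 on the log2 scale (standard error 0.19) in Cpt2L-/- against ff;ff and -1.50 (0.20) in DKO against Rab30L-/-. Dmgdh oxidizes dimethylglycine, the product of Bhmt, to sarcosine (ENSMUSG00000042102, chromosome 13 from 93674433 to 93752833, plus strand). It was at 524, 731, 882 and 359 CPM in ff;ff livers, 501 to 641 in Rab30L-/- livers, 283 to 373 in Cpt2L-/- livers and 330 to 392 in DKO livers. One ff;ff liver and 1 Rab30KO liver, at 359 and 355 CPM, lay within the range of the livers with loss of Cpt2. The log2 fold changes were -0.95 (standard error 0.24) and -0.73 (0.13).

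Shmt1, the cytosolic enzyme that moves the carbon of serine onto folate and leaves glycine (ENSMUSG00000020534, chromosome 11 from 60788104 to 60811718, minus strand), was the least abundant of the 10 genes per length in ff;ff livers, at 46.5 ± 6.6 FPKM (SD, n = 4). Its CPM was 144 to 209 in ff;ff, 183 to 247 in Rab30L-/-, 102 to 119 in Cpt2L-/- and 91.3 to 143 in DKO livers. The DKO liver at 142.7 CPM nearly reached the ff;ff liver at 143.8 CPM, and the groups did not overlap. Shmt1 fell by 0.71 (standard error 0.14) in Cpt2L-/- against ff;ff and by 0.90 (0.16) in DKO against Rab30L-/- on the log2 scale.

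Ordered by mean CPM, all 10 genes had the 4 groups with Cpt2 intact above both groups without it, and neighbours among these 4 groups overlapped for every gene. DKO stood just above Cpt2L-/- for 9 genes and below it for Cbs, with overlapping ranges in all 10 cases. The step between the last group with Cpt2 intact and the first without it held no overlap for 8 genes and did overlap for Mat1a and Bhmt. Only these neighbours were compared here, and for Dmgdh 2 of the 16 livers with Cpt2 intact, in other groups, did overlap.

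Markers of liver cell types moved with these groups. The summed level of 8 hepatocyte markers was 94100 to 118000 CPM in ff;ff livers, 76200 to 90600 in Rab30L-/- livers, 43900 to 54000 in Cpt2L-/- livers and 58100 to 71300 in DKO livers, with 5 of the 8 lower past the thresholds in Cpt2L-/- against ff;ff and a median log2 fold change of -1.13. Of 6 periportal hepatocyte markers 5 were lower and 1 was higher, with a median of -2.09, and of 6 pericentral markers 5 were lower, with a median of -1.44. Kupffer cell and macrophage markers were lower for 3 of 8 and summed to 184 to 333 CPM in ff;ff and 148 to 216 CPM in Cpt2L-/- livers. Red blood cell markers were lower for 4 of 5, endothelial markers for 1 of 8, and bile duct markers for 1 of 4 tested, while stellate cell markers summed to 141 to 267 CPM in ff;ff and 256 to 277 CPM in Cpt2L-/- livers and none of the T and B cell markers passed the filter on low counts. In DKO against Rab30L-/- livers 4 of 8 hepatocyte, 5 of 6 periportal, 3 of 6 pericentral and 7 of 8 Kupffer cell and macrophage markers were lower, where 15.8% of all genes were called lower. In the same comparison 1 of 5 red blood cell markers and 1 of 3 bile duct markers tested were lower, 1 periportal, 1 endothelial and 1 red blood cell marker were higher, and the median log2 fold change of the stellate cell markers was -0.13. No marker was at 0 in all livers of a group. The part of these markers in the levels of the 10 genes was not tested.

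The 10 genes were then compared in the pairs of groups that differ in Rab30. These tests are not fully independent of the choice of genes where they use the ff;ff or Cpt2L-/- livers, and only Rab30KO against Rab30 Ctrl uses neither. In edgeR's test none of the 10 genes was called in any of these comparisons. In DKO against Cpt2L-/- livers 2.71% of 13306 genes were called, with 2 of the 10 genes and 21.7% of all genes at an unadjusted p under 0.05 in edgeR. DESeq2 called 1 of the 10 genes there, where it called 1032 of all genes. In Rab30L-/- against ff;ff livers 0.479% of 13367 genes were called, and in Rab30KO against Rab30 Ctrl livers 0.022% of 13656, with 0 of the 10 genes at an unadjusted p under 0.05 and 0 called by DESeq2 in both. Of all genes 11.2% and 2.21% had an unadjusted p under 0.05 in these 2 comparisons, and DESeq2 called 298 and 10 of all genes. All 10 genes had overlapping ranges in each of these 3 comparisons.

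Cbs and Cth came nearest to the threshold. Cbs was at 127 ± 20 CPM in DKO and 179 ± 28.4 CPM in Cpt2L-/- livers (SD, n = 4), a log2 difference of -0.48 (95% interval -0.81 to -0.15, adjusted p = 0.104 from edgeR, and called by DESeq2 and without the filter on low counts). Cth went the other way, at 194 ± 64.7 against 118 ± 36.2 CPM (SD, n = 4), a log2 difference of 0.72 (95% interval 0.12 to 1.33, adjusted p = 0.167 from edgeR). Gnmt differed by 0.32 (95% interval -0.05 to 0.70, adjusted p = 0.294 from edgeR) and Mat1a by 0.06 (-0.35 to 0.48, adjusted p = 0.879). The other 6 genes had log2 differences between 0.12 and 0.36, and their intervals reached from -0.38 to 1.002, both for Bhmt.

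In Rab30L-/- against ff;ff livers the log2 differences of the 10 genes ran from -0.16 for Ahcy to 0.32 for Shmt1, the smallest adjusted p being 0.476 from edgeR. Gnmt differed by 0.08 (95% interval -0.29 to 0.45). In Rab30KO against Rab30 Ctrl livers they ran from -0.26 for Gnmt (95% interval -0.83 to 0.31) to 0.08 for Cth (-0.33 to 0.49), with an adjusted p of 1 for all 10 in edgeR. The widest intervals belonged to Bhmt, -0.72 to 0.72 in the whole-body pair.

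Whether the difference with Rab30 loss itself changed with Cpt2 was fitted over the 16 livers of ff;ff, Rab30L-/-, Cpt2L-/- and DKO as the DKO minus Cpt2L-/- difference less the Rab30L-/- minus ff;ff difference. Of 14063 genes 4.06% were called. Among the 10 genes 0 were called by edgeR, and 0 had an unadjusted p under 0.05 where 21.7% of all genes did. DESeq2 called 0 of the 10 genes, where it called 1080 of all genes. The interaction on the log2 scale was 0.24 for Gnmt (95% interval -0.26 to 0.75, adjusted p = 0.584 from edgeR), 0.40 for Ahcy (-0.05 to 0.85, adjusted p = 0.284), -0.42 for Cbs (-0.91 to 0.08, adjusted p = 0.315) and 0.62 for Cth (-0.14 to 1.37, adjusted p = 0.332).

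**Figure D3:**
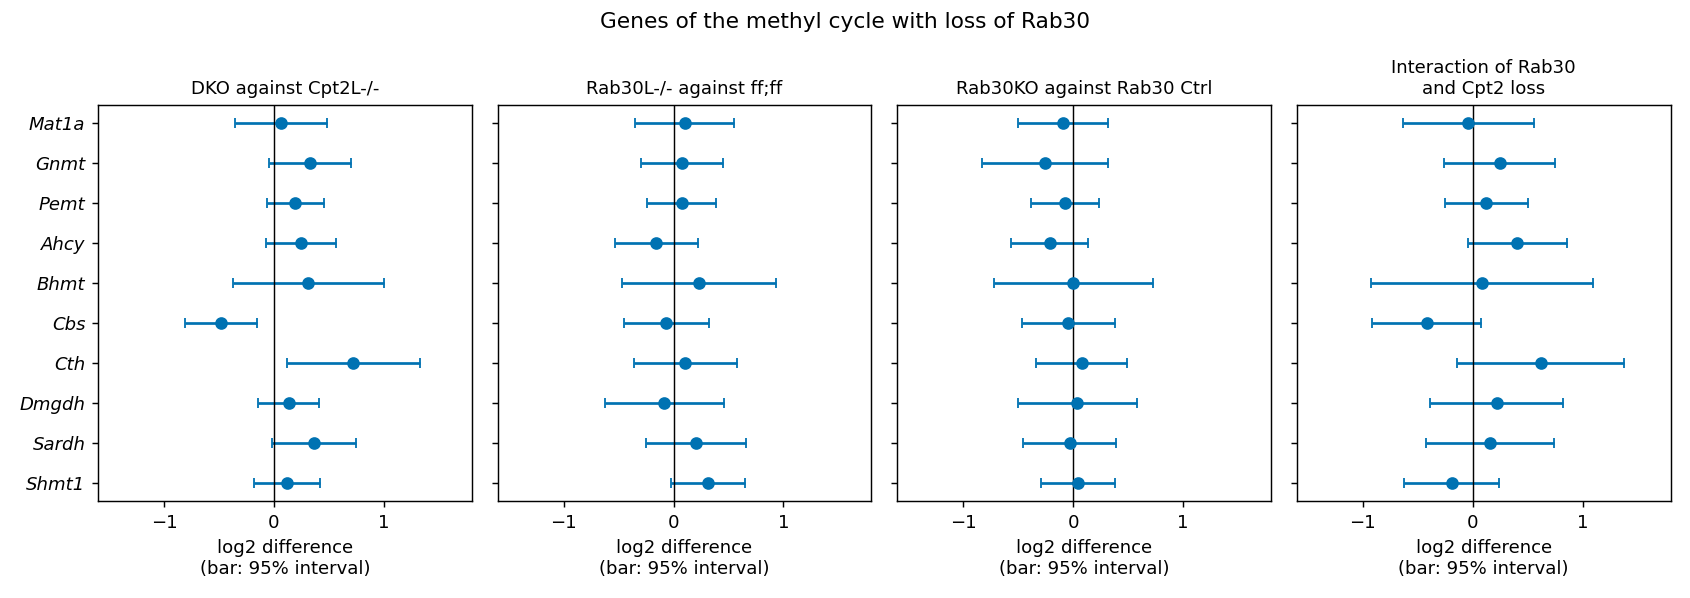
Log2 difference of each gene (x axis, log2 scale) in the 3 comparisons that differ in Rab30 and in the interaction, with the 95% interval from edgeR as the bar. Nearly every interval spans 0, and the exceptions are Cbs (-0.81 to -0.15) and Cth (0.12 to 1.33) in DKO against Cpt2L-/-, neither of which passed after adjustment.

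Genes around the cycle were read from 6 lists of 93 symbols, none of them among the 10. The lists were chosen with earlier results of these data known, and most genes were named by their rank in Cpt2L-/- against ff;ff. Their shares and adjusted p with loss of Cpt2 are therefore a description and no test of the lists. In Cpt2L-/- against ff;ff livers 12 of the 89 tested rows were higher and 26 lower, with a median log2 fold change of -0.16. That is 42.7% called, where 23.8% of all genes tested were called. In DKO against Rab30L-/- livers 15 were higher and 28 lower, or 48.3% called against 30.7% of all genes. In DKO against ff;ff livers 9 were higher and 23 lower, or 36% called against 16.1% of all genes. These lists thus held genes called in both directions. Psat1 is among the higher genes in Cpt2L-/- against ff;ff and in DKO against Rab30L-/-, and Mthfd2 is in the latter. Each passed the filter on low counts there through the livers with loss of Cpt2 alone. The medians of all genes tested are those given above.

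Of 15 genes of methionine salvage and polyamine synthesis, 3 rose and 1 fell in Cpt2L-/- against ff;ff livers, with a list median of -0.03, and the 26.7% called is near the share of all genes. Mri1 of the salvage pathway rose from 23.7 ± 4.43 to 42.8 ± 2.88 CPM (SD, n = 4, log2 0.84, adjusted p = 0.00174 from edgeR), and Srm, spermidine synthase, from 24.4 ± 4.24 to 38.6 ± 3.46 CPM (log2 0.64, adjusted p = 0.00861). Ahcyl1, a relative of Ahcy that binds the inositol trisphosphate receptor, fell from 185 ± 28.0 to 128 ± 8.76 CPM (log2 -0.54, adjusted p = 0.0167 from edgeR, and 0.0597 without Cpt2802).

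Of 11 genes of cysteine and sulfur metabolism, 2 rose and 5 fell, with a median of -0.31. That is 18.2% called higher and 45.5% called lower, where 11.9% of all genes were called each way. Both that rose make glutathione from cysteine. Gclc, the catalytic subunit of glutamate-cysteine ligase, rose from 194, 202, 107 and 185 CPM in ff;ff to 642, 494, 405 and 378 CPM in Cpt2L-/- livers (log2 1.47, standard error 0.23, adjusted p = 0.00048 from edgeR). All 4 Cpt2L-/- livers were above all 4 ff;ff livers. Gss, glutathione synthetase, rose by 0.80 on the log2 scale (adjusted p = 0.00101 from edgeR). Got1, the cytosolic aspartate aminotransferase, fell by 1.72 (adjusted p = 0.00063) and Suox, sulfite oxidase, by 0.93 (adjusted p = 0.00069 from edgeR).

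Of 22 folate genes tested, 3 rose and 6 fell, with a median of -0.22. The 13.6% called higher is near the 11.9% of all genes called higher, and 27.3% were called lower against 11.9%. Aldh1l1, the cytosolic enzyme that removes formyl groups from folate as carbon dioxide, was at 993, 1284, 1805 and 888 CPM in ff;ff and 267, 340, 306 and 165 CPM in Cpt2L-/- livers (log2 -2.22, standard error 0.27, adjusted p = 9.2e-05 from edgeR). Mthfd2, a mitochondrial folate dehydrogenase, was low in ff;ff livers at 1.46 ± 0.20 CPM and rose to 6.69 ± 2.41 CPM (SD, n = 4, log2 2.17, adjusted p = 0.00027 from edgeR). The groups of neither gene overlapped. Hal, the first enzyme of histidine breakdown, fell by 1.88 on the log2 scale (adjusted p = 0.00053 from edgeR).

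Of 13 tested genes of serine and glycine metabolism, 1 rose and 4 fell, with a median of -0.33. Here 7.69% were called higher and 30.8% lower, where 11.9% of all genes were called each way. Psat1, the aminotransferase of serine synthesis, was nearly absent from ff;ff livers at 3, 6, 7 and 1 counts (0.06 to 0.49 CPM) and stood at 4.8 to 11.5 CPM in Cpt2L-/- livers (log2 4.70, standard error 0.44). It is the gene counted as higher in this list, but it passed the filter on low counts through the Cpt2L-/- livers alone, so it had to differ and no p is given. Sds, which breaks serine down to pyruvate, went from 449 ± 143 to 64.4 ± 27.3 CPM (SD, n = 4, log2 -2.81, adjusted p = 0.00012 from edgeR). Gldc of the glycine cleavage system fell by 1.47 on the log2 scale (adjusted p = 0.00016 from edgeR). Hal and Sds are also in the list of periportal markers above.

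Of 14 choline and betaine genes 4 fell and the others were not called, and the median of the list was 0.11. The 28.6% called is near the share of all genes called in either direction, of which 11.9% were called lower. Etnppl, a phospholyase of phosphoethanolamine, fell by 2.86 (adjusted p = 0.00054) and Etnk2, an ethanolamine kinase, by 1.93 on the log2 scale (adjusted p = 4.4e-05 from edgeR). Of 14 methyltransferases, which spend S-adenosylmethionine, 3 rose and 6 fell, with a median of -0.35. These are 21.4% called higher and 42.9% called lower, against 11.9% of all genes each way. Nnmt, which methylates nicotinamide, fell from 388 ± 149 to 49.2 ± 27.1 CPM (SD, n = 4, log2 -3.00, adjusted p = 0.00182 from edgeR). Dnmt1 and Dnmt3a, the DNA methyltransferases, were low and rose by 0.77 and 0.74 (adjusted p = 0.013 and 0.00846 from edgeR).

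**Figure D4:**
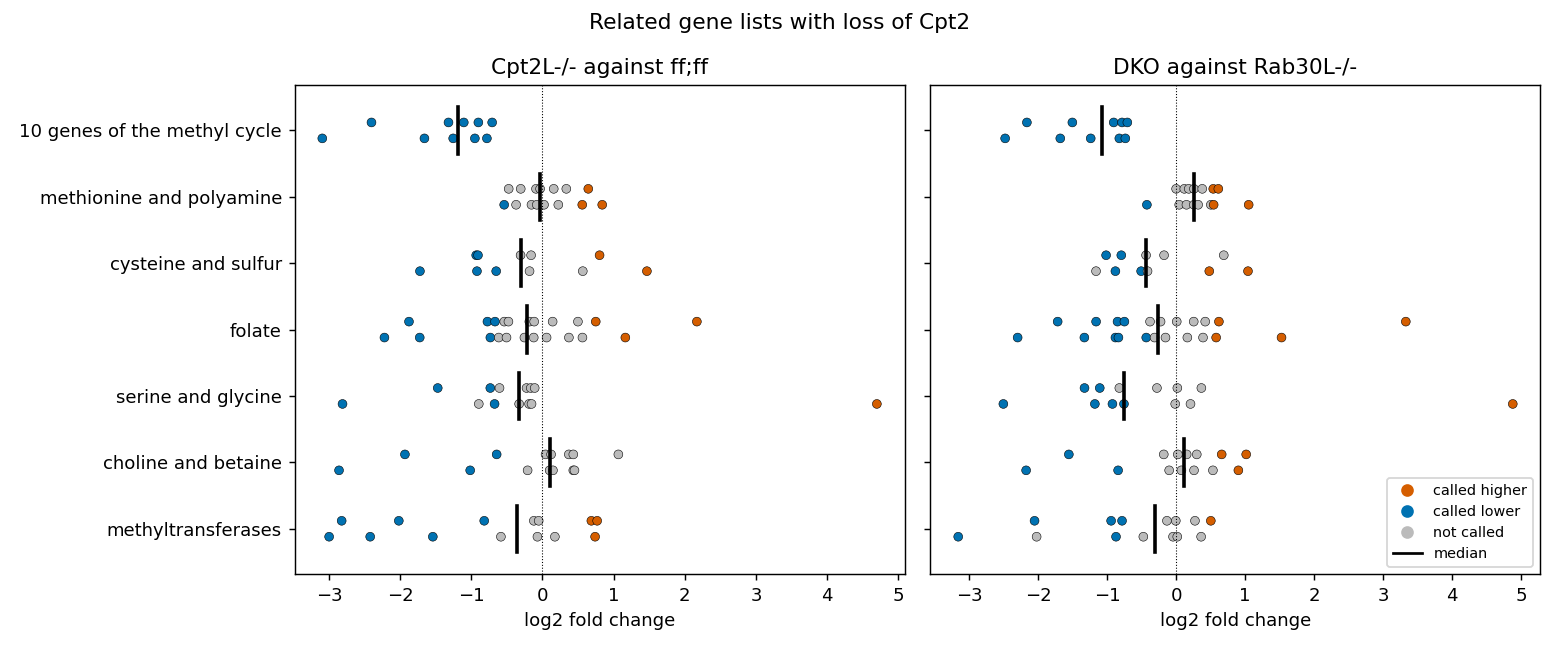
Log2 fold change (x axis, log2 scale) of each gene of the cycle and of 6 related lists (rows) in Cpt2L-/- against ff;ff and in DKO against Rab30L-/- livers, with called genes coloured by direction and the list median as a black line. The 10 genes of the cycle lie below 0 with medians of -1.18 and -1.07, and the related lists spread to both sides, from Nnmt at -3.00 to Psat1 at 4.70 on the left. Psat1 passed the filter on low counts through the livers with loss of Cpt2 alone, so it had to differ.

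The same named genes were read in DKO against Rab30L-/- livers, where 30.7% of all genes were called. Psat1 and Mthfd2 passed the filter there through the DKO livers alone and are given without a p, at 4.88 and 3.33 on the log2 scale. Gclc was higher by 1.04 (adjusted p = 0.00285 from edgeR). Aldh1l1 was lower by 1.71 (adjusted p = 0.00024), Sds by 2.50 (adjusted p = 0.00083) and Nnmt by 2.05 (adjusted p = 0.00251 from edgeR). The values that did not pass were Got1 at -1.16 (adjusted p = 0.101), Srm at 0.38 (adjusted p = 0.0874, and 0.0316 without DKO233), Dnmt1 at 0.36 (adjusted p = 0.142), Ahcyl1 at 0.15 (adjusted p = 0.359) and Tpmt at 0.02 (adjusted p = 0.973 from edgeR). Got1 was at 1152 CPM in DKO247 and 218 to 553 CPM in the other DKO livers, and without DKO247 it was called at -1.77 (adjusted p = 0.00368 from edgeR).

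Tpmt, the methyltransferase of thiopurine drugs, was the 1 related gene called between a pair of groups that differ in Rab30. It was at 179, 140, 110 and 100.6 CPM in ff;ff livers, 79.9, 51.6, 53.2 and 123 in Rab30L-/- livers, 16.9, 21.6, 22.8 and 14.2 in Cpt2L-/- livers, and 51.0, 100.9, 72.1 and 87.8 in DKO livers. Cpt2L-/- livers were thus low, below every liver of the other groups. In edgeR its difference on the log2 scale was -2.82 (standard error 0.22, adjusted p = 2.8e-06) in Cpt2L-/- against ff;ff and 2.05 (standard error 0.22, adjusted p = 0.00075 from edgeR) in DKO against Cpt2L-/-. Of the related genes tested, 1 of 89 was called in DKO against Cpt2L-/-, 0 of 88 in Rab30L-/- against ff;ff and 0 of 88 in Rab30KO against Rab30 Ctrl. At an unadjusted p under 0.05 edgeR had 17, 12 and 0 of them in the same order, or 19.1%, 13.6% and 0%, where it had 21.7%, 11.2% and 2.21% of all genes. DESeq2 called 6, 1 and 0 of them, where it called 1032, 298 and 10 of all genes.

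The genes most like Gnmt over the 24 livers, by Pearson r of log2(CPM + 1) among 7881 genes with a mean of at least 10 CPM, were Haao (0.987), Agt (0.975), Aldh1l1 (0.974), Proz (0.963) and Prodh2 (0.963). The livers fall into the step with and without Cpt2, so r within each side is the more useful description. Within the 16 livers with Cpt2 intact r was 0.929 for Haao, 0.851 for Prodh2, 0.767 for Agt, 0.767 for Aldh1l1 and 0.48 for Proz, and within the 8 livers without it r was 0.692, 0.482, 0.74, 0.887 and 0.448 in the same order. Haao, an enzyme of the tryptophan to NAD pathway, was at 232 CPM in ff;ff and 51.6 CPM in Cpt2L-/- livers on average. Among the other 9 genes of the cycle r with Gnmt over 24 livers ran from 0.77 for Bhmt to 0.961 for Sardh, and within the 16 livers with Cpt2 intact from 0.154 for Bhmt to 0.68 for Ahcy. Within the 8 livers with loss of Cpt2 it was highest for Bhmt at 0.84 and below 0 for Cbs alone, at -0.197. These points share libraries and scaling, and r is given without a test.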

How the data were processed

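Liver RNA was extracted with TRIzol and RNeasy columns, and libraries were made and sequenced by a company. The authors deposited raw counts per gene and FPKM values per library. The submitters' processing notes name HISAT2, DESeq2 and GRCm38 (mm10) without roles or versions, and the counter, annotation and use of strand are not given in the sources used here. The deposited FPKM were counts divided by gene length and a library factor, for 100% of values within 0.1%. Columns of the authors' own comparisons (fold changes and p-values) and a DESeq2-normalized table were not used.

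Counts were fitted as deposited with edgeR 4.0.16 in R 4.3.3 (filterByExpr, TMM, robust quasi-likelihood test), each pair of groups on its own 8 libraries and the interaction on 16. A gene was called at a Benjamini-Hochberg adjusted p under 0.05 over all genes tested and at least a 1.2-fold change. P-values judge a difference between groups against the spread between the libraries within a group. The fit was tested on simulated counts. Alternatives were DESeq2 1.42.0, its size factors in edgeR, no filter on low counts, 1 fit over 24 libraries, log2(FPKM + 1), and leaving out each library. Tables were made with Python 3.11.15, pandas 2.3.3 and numpy 2.4.6.

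The 10 genes and all lists were chosen with earlier results of these data known. Named were all 10 genes, the targeted genes, the 2 highest and 2 lowest called genes of each related list in Cpt2L-/- against ff;ff, up to 5 called related genes in each comparison of Rab30 and the interaction, and the 5 genes most like Gnmt. One gene that this rule names is not reported here. Promoters are from RefSeq, and coordinates from GENCODE M21 on GRCm38.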

Additional observations from a re-analysis of the deposited data

Results flagged for a closer look

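Of 60 sets of 4 livers (10 genes in 6 groups), 2 held a liver far from the other 3 by Dixon's test, which chance gives in about 1 of 20 sets. Ahcy was at 4170 CPM in the Rab30 Ctrl liver WT951, and the other 3 were at 4969 to 5064 CPM. Bhmt was at 1980 CPM in the ff;ff liver ffff248, and the other 3 were at 6156 to 6733 CPM.

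The difference with loss of Rab30 changed with Cpt2 for 3 related genes, by the interaction term in edgeR over 16 livers, which is 3.37% of the 89 tested where 4.06% of all genes were called. DESeq2 called 7 of the related genes, where it called 1080 of all genes. In edgeR 22.5% of the related genes had an unadjusted p under 0.05, where 21.7% of all genes did. These shares are at the background, so the genes are given as single values. Tpmt had an interaction of 2.84 on the log2 scale (standard error 0.40, adjusted p = 0.00076 from edgeR). It was called in all 16 fits that left out 1 liver.

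Chpt1, a cholinephosphotransferase, had an interaction of 1.12 (standard error 0.29, adjusted p = 0.0355 from edgeR). It was at 400, 337, 198 and 273 CPM in ff;ff livers, 250, 200, 141 and 181 in Rab30L-/- livers, 281, 251, 273 and 249 in Cpt2L-/- livers, and 416, 355, 273 and 400 in DKO livers. The ranges of ff;ff and Rab30L-/- livers overlapped. The call was lost without Cpt2166, Cpt2801, Cpt2802, DKO232, DKO233, DKO943, Rab30cff978, Rab30cff979, Rab30cff980, ffff238 or ffff240, where the interaction was 0.96 to 1.14 with adjusted p from 0.0569 to 0.0744.

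Ahcyl1 had an interaction of 0.692 (standard error 0.18, adjusted p = 0.0344 from edgeR). The call was lost without Cpt2164, Cpt2801, Cpt2802, DKO232, DKO233, DKO943, Rab30cff978, Rab30cff979, Rab30cff980 or ffff238, where it was 0.63 to 0.72 with adjusted p from 0.0505 to 0.0815.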

How the results depend on the processing

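No paired analysis was possible because the labels give the groups no shared replicate numbers. The count of genes called moved by over 1.5 times only in the comparisons of Rab30 and the interaction, and the cause was not tested. In DKO against Cpt2L-/- it was 360, and 1032 with DESeq2, 705 without the filter on low counts, 114 in the fit over 24 libraries, and 57 (without Cpt2802) to 445 (without DKO247) with 1 library left out. The 10 genes had 1 call there with DESeq2 and 1 without the filter (Cbs), and related genes had 6 with DESeq2, 2 without the filter and 1 to 3 with 1 library left out. In Rab30L-/- against ff;ff it was 64, and 298 with DESeq2, 240 without the filter, and 23 (without Rab30cff980) to 93 (without Rab30cff741), with 1 related gene called by DESeq2. In Rab30KO against Rab30 Ctrl it was 3, and 10 with DESeq2, 6 without the filter, 9 in the fit over 24 libraries, and 0 to 4. In the interaction it was 571, and 1080 with DESeq2, 374 in the fit over 24 libraries, and 300 (without Cpt2802) to 679 (without Rab30cff741), with 7 related genes by DESeq2 and 1 to 6 with 1 library left out.

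Log2 differences that changed sign were small and not called. In Rab30KO against Rab30 Ctrl, Bhmt was -0.0036 without the filter and Dmgdh -0.0068 on log2(FPKM + 1). With 1 library left out, the ranges there were -0.17 to 0.021 for Mat1a, -0.21 to 0.27 for Bhmt, -0.17 to 0.061 for Cbs, -0.023 to 0.19 for Cth, -0.16 to 0.25 for Dmgdh, -0.15 to 0.074 for Sardh and -0.020 to 0.12 for Shmt1. In Rab30L-/- against ff;ff they were -0.016 to 0.24 for Mat1a, -0.0013 to 0.14 for Gnmt, -0.047 to 0.37 for Bhmt, -0.17 to 0.055 for Cbs, -0.037 to 0.30 for Cth and -0.28 to 0.13 for Dmgdh. Mat1a ran from -0.10 to 0.21 in DKO against Cpt2L-/- and from -0.20 to 0.11 in the interaction, where Bhmt ran from -0.15 to 0.40. As a description, Gnmt ran from -2.51 to -2.29 and Cth from -3.25 to -2.89 in Cpt2L-/- against ff;ff.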
